A study of Gallus gallus with 4 samples.

Results

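Muscle can burn fatty acids, store them as triglyceride and build membrane lipids and sterols from acetyl-CoA. In β-oxidation an acyl-CoA synthetase activates the fatty acid, carnitine carries it into the mitochondrion, and acyl-CoA dehydrogenases, the trifunctional protein and a thiolase then shorten the chain step by step. In birds most fatty acid synthesis takes place in the liver, and the broiler breast is a largely fast, glycolytic muscle. The genes of these routes were followed here in the breast muscle of male broilers, fast-growing meat chickens, of a single line that differed in feed efficiency, the weight gained per unit of feed. Caged and fed individually, the birds received no treatment. Their feed was based on corn and soy (protein near 20.5%, energy near 3280 kcal per kg), and feed efficiency was taken from 6 to 7 weeks of age.

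The data came from 4 two-colour microarrays. On each, low-efficiency RNA carried the dye Cy3 (channel 1) and high-efficiency RNA the dye Cy5 (channel 2). The series names 4 birds of each kind as biological replicates. Whether RNA was pooled is not stated in what was read here. Values are log2 ratios of the dyes with each array's median at 0, so 1 is a doubling. High over low is the likely and not the certain direction, since the numerator is not stated and 0 arrays had the dyes swapped. If Cy3 was the numerator, "higher" and "lower" change places throughout. A ratio holds no expression level, so breast muscle markers could not be checked for presence. In tissue RNA, fewer cells of a type and less RNA per cell cannot be told apart.

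The genes were taken by platform gene symbol: families of fatty acid oxidation, activation, synthesis and desaturation, sterol synthesis, glycerolipid synthesis, apolipoproteins, ABC transporters of subfamilies A, D and G, and all cytochrome P450s. Such symbols stood on 60 features for 55 genes. Of these, 47 features for 45 genes had a usable value on all 4 arrays, among 3494 named genes in all. The other 10 genes lacked a value on at least 1 array: ABCA1, ABCA5, APOB, CYP1A2, CYP26C1, CYP2C18, CYP2C23a, CYP3A4, ELOVL4 and FASN. A CYP2C18 feature was at the deposited ceiling of 16.61 on array 1, while the highest deposited value of any lipid feature kept was 1.02. A further feature each of CYP1A1 and CYP7A1 had values on only 2 arrays and was left out. Fatty acid synthase, FASN, the enzyme that builds palmitate, gave 0.14, -0.10 and 0.24 on arrays 1 to 3 and no value on array 4. No matching feature was left out for a deposited ratio of 1, and 1 feature kept (CYP19A1) was within 0.005 of a log2 ratio of 0 on a single array.

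Each gene was tested against a ratio of 1 with limma over all named genes, and called at a Benjamini-Hochberg adjusted p under 0.05. Of the 45 lipid genes 9 were called higher, 3 lower and 33 not called. Over all named genes 18.5% were called higher and 6.1% lower. Together 26.7% of the lipid genes were called against 24.6% of all genes, so the family as a whole was called about as often as the array. Of the 45 genes 11 were above 0 on all 4 arrays, or 24.4% against 31.1% of all named genes, and 6 were below 0 on all 4, or 13.3% against 15.6%. The median of the 45 mean ratios was -0.06, against 0.01 over all named genes. The 9 higher genes were LSS, ACAD8, AGPAT5, ME1, HMGCS1, LPL, ACAD9, ACADL and ABCD3, between 1.14-fold and 1.40-fold. The 3 lower genes were CYP24A1 (2.01-fold), DECR1 (1.49-fold) and HADHA (1.26-fold).

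These calls hang on the arrays and on the features tested. Without array 1 the calls that remained were LSS and ACAD8 (2 higher, 0 lower), when 11.6% of all named genes were called. Without array 4 they were ACAD8, AGPAT5 and CYP24A1 (2 higher, 1 lower), when 5.67% of all named genes were called. Without array 2 or array 3, 0 of the 45 genes were called in limma, though 15 and 13 had an unadjusted p under 0.05, and then 0.114% and 0.143% of all named genes were called. With every feature tested and p adjusted over all 31722, 0 of the 47 lipid features passed, 14 had an unadjusted p under 0.05, and 3.97% of all features were called. The smallest adjusted p among them was then 0.0553, for ACAD8.

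**Figure D1:**
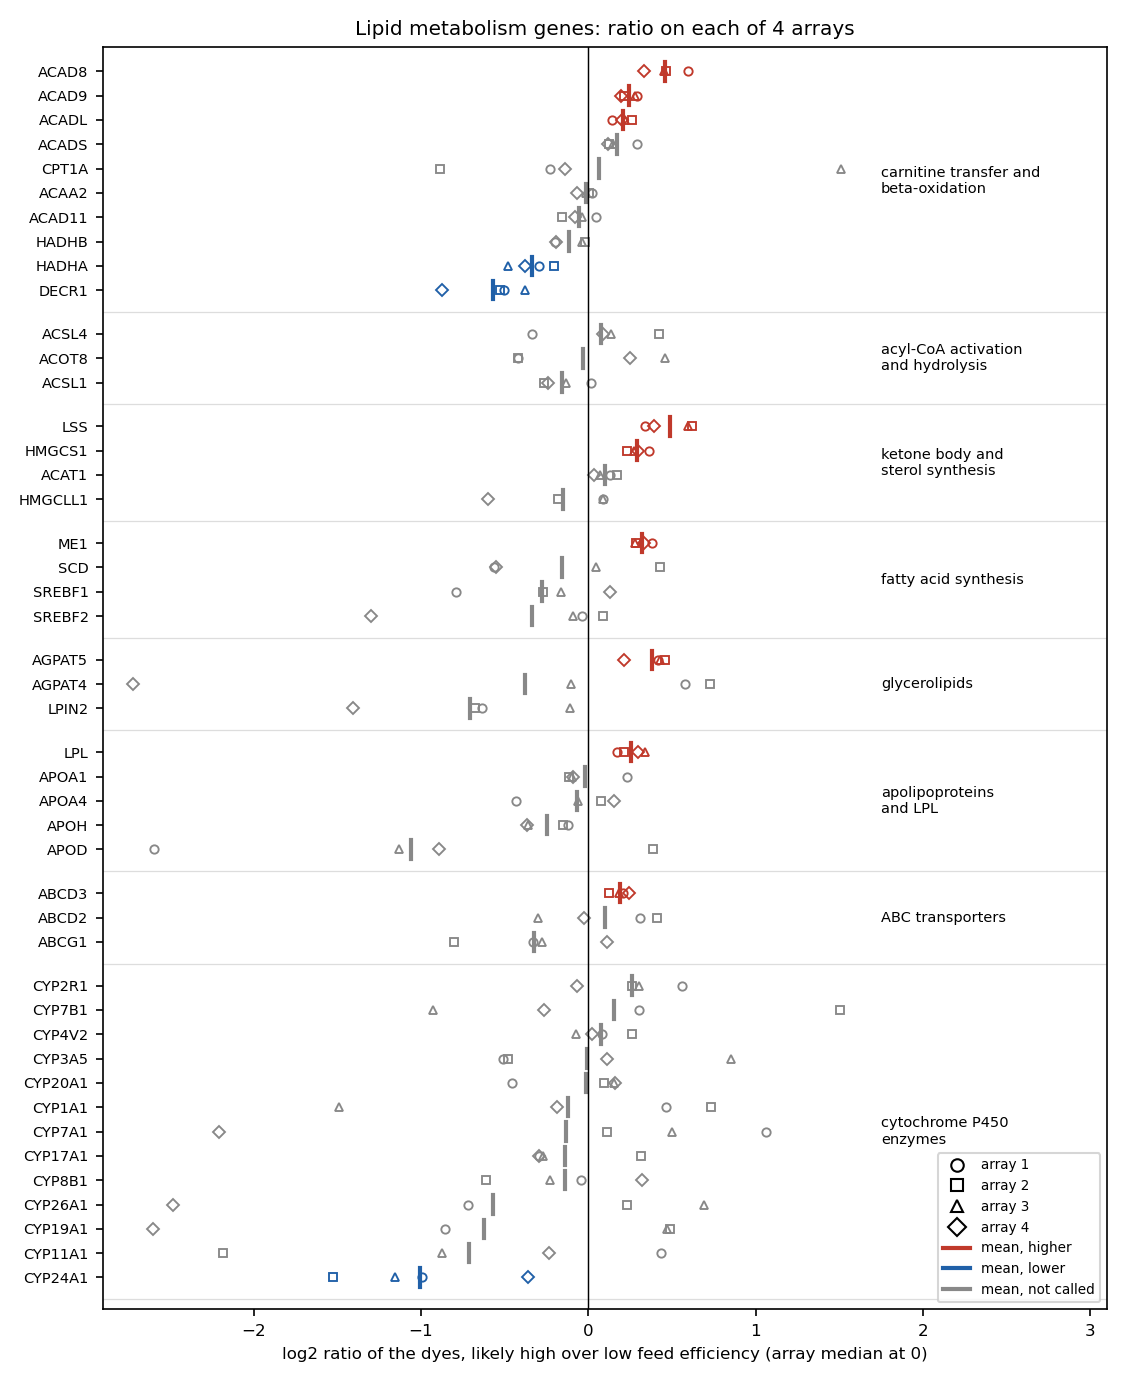
Log2 ratio of each of the 45 lipid genes on each of the 4 arrays (open symbols, 1 shape per array) with the mean (bar), grouped by role, array median at 0. Red and blue mark genes called higher and lower at adjusted p under 0.05. Each gene of the β-oxidation group other than CPT1A and DECR1 (SD 0.21) has similar values on the 4 arrays. Most cytochrome P450 genes lie on both sides of 0. Of the 9 red genes, 7 have means below 0 when the deposited values are not centred.

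The carnitine and β-oxidation group was formed by gene symbol and so includes ACAD8, an enzyme of valine breakdown. It held 10 genes, of which 3 rose, 2 fell and 5 were not called, with a median of 0.03. The shares over all named genes were 18.5% higher and 6.1% lower. The median SD of the group was 0.09, and of all named genes with an SD under 0.1, 54.3% were called. By mean ratio, 4 of the 5 acyl-CoA dehydrogenases (ACAD8, ACAD9, ACADL and ACADS) were the highest of the group, and HADHA and DECR1 were the lowest. The other dehydrogenase, ACAD11 (-0.06), lay below the thiolase ACAA2 (-0.01). This order was seen in the values and was not tested. ACAD8, the isobutyryl-CoA dehydrogenase of valine breakdown, had 0.60, 0.46, 0.45 and 0.33 on arrays 1 to 4. With each array's median at 0, all 4 arrays were above 0, with a mean of 0.46 ± 0.11 (SD, n = 4), or 1.38-fold (limma adjusted p = 0.0143). As deposited the mean of ACAD8 was only 0.02 and was not called (limma adjusted p = 0.907). ACAD9, a dehydrogenase that also helps assemble respiratory complex I, had 0.29, 0.21, 0.28 and 0.19. Its mean was 0.24 ± 0.05 (adjusted p = 0.0268). ACADL, the long-chain enzyme, had 0.14, 0.26, 0.22 and 0.20, a narrow band above 0 with a mean of 0.21 ± 0.05 (adjusted p = 0.0399). ACAD9 and ACADL stood at -0.20 and -0.23 in the values as deposited.

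The short-chain enzyme ACADS had 0.29, 0.12, 0.15 and 0.12, above 0 on all 4 arrays, but its mean of 0.17 ± 0.08 was not called (adjusted p = 0.0891). ACAD11, a dehydrogenase of long acyl-CoAs, stood at -0.06 ± 0.09 and the thiolase ACAA2, which splits off acetyl-CoA, at -0.01 ± 0.04. For ACAA2 the 95% interval ran from -0.13 to 0.10, which leaves room for only small differences around the array median. CPT1A, the liver-type carnitine palmitoyltransferase of the outer mitochondrial membrane, had -0.23, -0.89, 1.51 and -0.14. Its arrays disagreed by 2.40 on the log2 scale, and its 95% interval of -1.10 to 1.23 gives no usable estimate.

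DECR1, the mitochondrial 2,4-dienoyl-CoA reductase needed for many unsaturated fatty acids, had -0.51, -0.53, -0.38 and -0.87 on arrays 1 to 4. It was below 0 on every array, with a mean of -0.57 ± 0.21 (adjusted p = 0.0237). HADHA, the α subunit of the trifunctional protein, had -0.30, -0.20, -0.48 and -0.38, with a mean of -0.34 ± 0.12 (adjusted p = 0.0287). HADHB, the β subunit of the same complex, had -0.20, -0.02, -0.04 and -0.19. It too was below 0 on all 4 arrays, by less, and its mean of -0.11 ± 0.10 was not called (adjusted p = 0.224). With the zero of each array set on its steadiest features, the 10% with the lowest SD, HADHB passed as lower (-0.27, limma adjusted p = 0.0398). As deposited it passed too (-0.56, adjusted p = 0.0289). Both zeros lower every gene, by 0.16 and 0.44. Then 11.8% and 32.7% of all named genes were called lower, against 6.1% with the array median at 0. The shift of the zero alone can bring such a call.

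Differences between genes within an array do not depend on the centring. HADHB exceeded HADHA by 0.09, 0.18, 0.44 and 0.18 on arrays 1 to 4. ACADL exceeded HADHA by 0.44 to 0.70, ACADS by 0.33 to 0.63 and ACAA2 by 0.21 to 0.47, so on all 4 arrays the thiolase and these dehydrogenases had higher ratios than the α subunit. HADHA exceeded DECR1 on 3 of 4 arrays. These pairs were chosen after their values were seen and were not tested. Of all 45 pairs in the group, 66.7% kept the same order on every array, against 40.5% of the 6102271 pairs of named genes and 10.3% of the 78 pairs of P450 genes. Pairs share genes, and the share follows the spread of the genes, whose median SD was 0.09 in this group, 0.17 over all genes and 0.64 in the P450s.

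**Figure D2:**
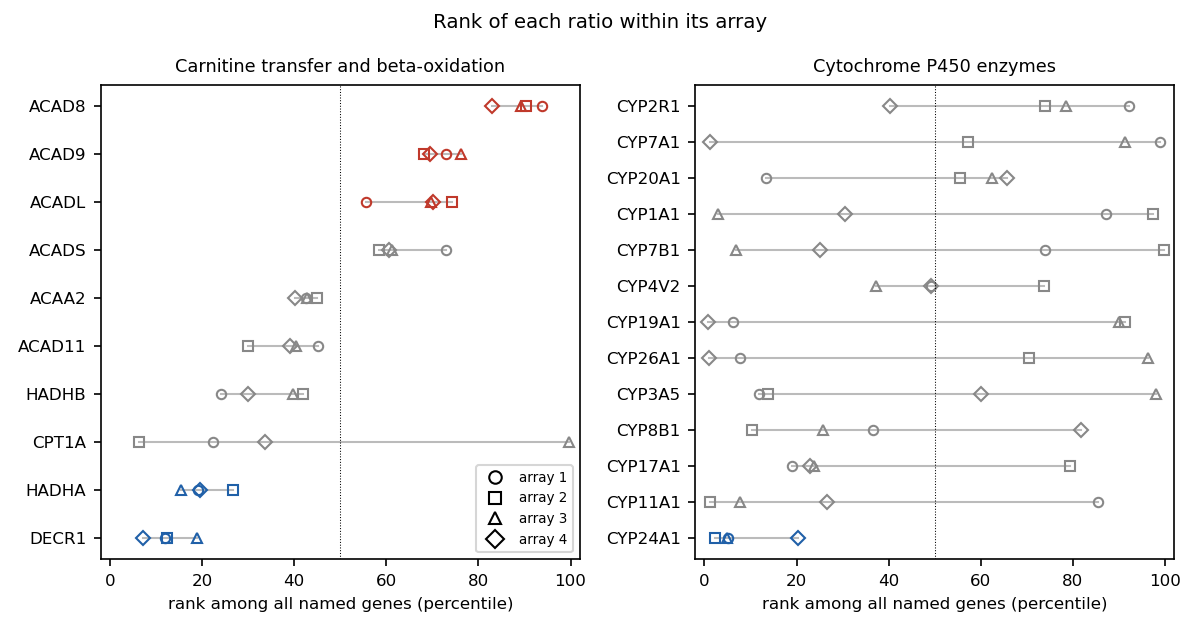
Percentile rank of the ratio of each gene of the β-oxidation group (left) and each P450 gene (right) among the 3494 named genes. Open symbols show the arrays, 1 shape per array, and lines span lowest to highest. No centring can change these ranks. ACAD8 lies between 83.0 and 93.7 and DECR1 between 7.23 and 18.8 on the 4 arrays, while CYP7A1 spans 1.32 to 99.0; colours as in the plot of ratios by array.

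In breast muscle these differences lay beside a large one in fibre-type genes. Of 15 measured slow and cardiac-type fibre markers, 12 fell and 0 rose, with array medians between -1.47 and -1.29, while MYH7 stood at 0.72 ± 0.58 and was not called. Slow fibres are the oxidative ones, and β-oxidation genes are active in them. Of 4 genes listed as fast-fibre markers, 1 rose (TNNT3) and 2 fell (PVALB and MYOT). How specific each of these is to fast fibres was not tested. Over all named genes 18.5% were called higher and 6.1% lower. With the array median at 0, DECR1 and HADHA were lower by less than the slow-fibre median on every array. ACAD8, ACAD9, ACADL and ACADS of the same group were above 0 on all 4. What part the fibre genes have in these ratios was not tested.

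Fatty acid activation and thioester hydrolysis gave 3 genes, and 0 of them were called; at an unadjusted p under 0.05 limma also had 0. ACSL1, the main long-chain acyl-CoA synthetase of muscle and fat in mammals, had 0.02, -0.27, -0.13 and -0.24. It was below 0 on 3 of 4 arrays, and the mean of -0.16 ± 0.13 was not called (adjusted p = 0.175). It was called lower with the zero set on the steadiest features (-0.32, adjusted p = 0.0438), a zero that lowers every gene by 0.16. ACSL4, which prefers arachidonic acid, had -0.34, 0.42, 0.14 and 0.09, on both sides of 0 (0.08 ± 0.31). The peroxisomal thioesterase ACOT8 had 2 features that disagreed: the steadier was at 0.11 ± 0.06 and the other at -0.17 ± 0.93, with a gene mean of -0.03 ± 0.45.

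Among genes of acetoacetyl-CoA, ketone body and sterol synthesis, 2 of 4 rose and 0 fell, against 18.5% and 6.1% of all named genes. LSS, the lanosterol synthase that closes the sterol rings, had 0.34, 0.62, 0.60 and 0.40. It was the highest of the 45 lipid genes, at 0.49 ± 0.14 or 1.40-fold (adjusted p = 0.0176). HMGCS1, the cytosolic HMG-CoA synthase at the head of the cholesterol pathway, had 0.36, 0.23, 0.27 and 0.29. Its spread was small, with a mean of 0.29 ± 0.05 (adjusted p = 0.0197), but -0.15 as deposited. ACAT1, the mitochondrial acetoacetyl-CoA thiolase, had 0.13, 0.17, 0.07 and 0.03. All 4 arrays lay above 0, close to it, and the mean of 0.10 ± 0.06 was not called (adjusted p = 0.201). HMGCLL1, an HMG-CoA lyase outside the mitochondrion, had 0.09, -0.18, 0.09 and -0.60, the mean of 2 features with opposite signs (0.24 ± 0.29 and -0.54 ± 0.61).

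Other genes of cholesterol synthesis and its control were described with a separate list. Of 4 measured, 3 rose and 1 fell. For this list and the further groups and lists below, the shares over all named genes were 18.5% higher and 6.1% lower. MSMO1, the sterol methyl oxidase, stood at 0.49 ± 0.14 (adjusted p = 0.0176), HSD17B7, which acts in the later steps of cholesterol synthesis, at 0.48 ± 0.07 (0.00957), and the oxysterol-binding OSBPL2 at 0.32 ± 0.05 (0.0157). CH25H, which makes 25-hydroxycholesterol, was the one that fell (-0.20 ± 0.06, adjusted p = 0.0436; named after its value was seen). MSMO1, HSD17B7 and LSS kept a positive mean as deposited (0.05, 0.04 and 0.05), where none of the 3 was called. OSBPL2 turned negative (-0.12).

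In fatty acid synthesis 1 of 4 genes rose and 0 fell. ME1, the malic enzyme that supplies NADPH for fatty acid synthesis, had 0.38, 0.28, 0.28 and 0.33. Its arrays lay within 0.10 of each other, with a mean of 0.32 ± 0.05 (adjusted p = 0.0157), and -0.12 as deposited. The transcription factors that switch on lipid and sterol genes in mammals gave no call. SREBF1 had -0.79, -0.27, -0.17 and 0.13 (-0.27 ± 0.38, adjusted p = 0.299), and SREBF2 had -0.04, 0.09, -0.09 and -1.30 (-0.34 ± 0.65, adjusted p = 0.433). SREBF2 was low on array 4 alone, and SREBF1 was below 0 on 3 of 4 arrays. The desaturase SCD, which makes oleate from stearate, stood at -0.16 ± 0.48, with arrays on both sides of 0.

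Of 6 further genes of fatty acid synthesis and its supplies, 3 rose and 0 fell. THRSP (Spot 14), which responds to thyroid hormone and promotes lipogenesis, was at 0.89 ± 0.04, its relative MID1IP1 at 0.61 ± 0.12 and the acyl-CoA dehydratase HACD3 at 0.25 ± 0.08 (adjusted p = 0.00502, 0.00962 and 0.0355). THRSP alone was still called higher as deposited (0.45, adjusted p = 0.0394), while HACD3 turned negative there. ACACA, acetyl-CoA carboxylase, the committed step of the pathway, was at 0.09 ± 0.47 and was not called.

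Glycerolipid genes moved in no common direction, with 1 of 3 higher and 0 lower. AGPAT5, which adds the second acyl chain to lysophosphatidic acid, had 0.42, 0.46, 0.43 and 0.21. Array 4 was the lowest, still above 0, and the mean was 0.38 ± 0.11 or 1.30-fold (adjusted p = 0.0212), with -0.06 as deposited. AGPAT4 of the same family had 0.58, 0.73, -0.11 and -2.72, the widest spread of the 45 genes (-0.38 ± 1.60, adjusted p = 0.712). LPIN2, a lipin that turns phosphatidic acid into diacylglycerol, had -0.64, -0.68, -0.11 and -1.40. It was below 0 on all 4 arrays, by 1.63-fold on average, but the mean of -0.71 ± 0.53 was not called (adjusted p = 0.0971). LPIN2 passed as deposited (-1.15, adjusted p = 0.0283), where every gene is lower by 0.44 and 32.7% of all named genes were called lower.

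Of 3 further glycerolipid and phospholipid genes, 2 rose. PEMT, which methylates phosphatidylethanolamine to phosphatidylcholine, was at 0.41 ± 0.12 (adjusted p = 0.0202), and PGS1, which starts cardiolipin synthesis, at 0.41 ± 0.12 (adjusted p = 0.0207). Both were at -0.03 as deposited. In the sphingolipid list 0 of 5 genes were called, with 0 at an unadjusted p under 0.05 and a median of 0.00.

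Lipoprotein lipase, LPL, which frees fatty acids from circulating lipoproteins at the vessel wall, had 0.17, 0.22, 0.34 and 0.29. All 4 arrays lay above 0, and the mean of 0.26 ± 0.08, or 1.19-fold, was called (adjusted p = 0.0328). As deposited it was -0.19. The 4 apolipoproteins were not called. APOH, β2-glycoprotein I of plasma, had -0.12, -0.15, -0.36 and -0.37, below 0 on all 4 arrays, with a mean of -0.25 ± 0.13 just outside the threshold (adjusted p = 0.0675). It was called lower with the zero set on the steadiest features (-0.41, adjusted p = 0.0294), a zero that lowers every gene by 0.16.

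APOD, a lipocalin made in many tissues, had -2.60, 0.39, -1.13 and -0.89. Its mean of -1.06 was the lowest of the 45 genes, but array 2 lay on the other side of 0 and the SD was 1.22 (adjusted p = 0.219). APOA1, the main protein of HDL, stood at -0.02 ± 0.17, and APOA4 at -0.07 ± 0.26. Of 9 measured hepatocyte markers, a list that also holds APOA1, APOA4 and APOH, 2 fell (ALB and TF) and 0 rose, with array medians between -0.36 and -0.01. What part RNA from plasma-protein-making cells has in the apolipoprotein ratios was not tested.

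Of 7 other genes of fatty acid uptake, binding and release, 1 rose and 1 fell. FABP4, the fat-cell fatty acid carrier, was at 0.79 ± 0.06 (adjusted p = 0.00712) and the fatty acid transporter SLC27A1 at -0.26 ± 0.11 (adjusted p = 0.0482). FABP4 and LPL are also among the adipocyte markers, of which 5 were measured. Of these 4 rose (RBP7, THRSP, FABP4 and LPL) and 0 fell, with array medians from 0.69 to 0.87, while the adipokine ADIPOQ, a defining fat-cell marker, stood at -0.05 ± 0.07. What part fat-cell RNA has in the ratios of LPL, THRSP and ME1 was not tested. Among 7 endothelial markers 1 rose (FLT4), with array medians from -0.10 to 0.02.

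Lipoprotein receptors and remodelling proteins gave 1 higher and 3 lower of 10. PLTP, which moves phospholipid between lipoproteins, had -1.43, -1.13, -0.76 and -1.10, 2.15-fold lower on average (-1.11 ± 0.27, adjusted p = 0.011). LCAT, which esterifies cholesterol on HDL, was at -0.56 ± 0.06 (0.00877) and LRPAP1, a chaperone of LDL receptor family proteins, at 0.66 ± 0.10 (0.00892). The other gene lower was CETP, a cholesteryl ester carrier (-0.44 ± 0.11, adjusted p = 0.0164; named after its value was seen). LRPAP1 kept a positive mean under every centring tried. Leukocytes express PLTP in mammals, and of 11 leukocyte markers 5 fell and 0 rose, with array medians between -0.53 and -0.23. Their part in the PLTP ratio was not tested.

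**Figure D3:**
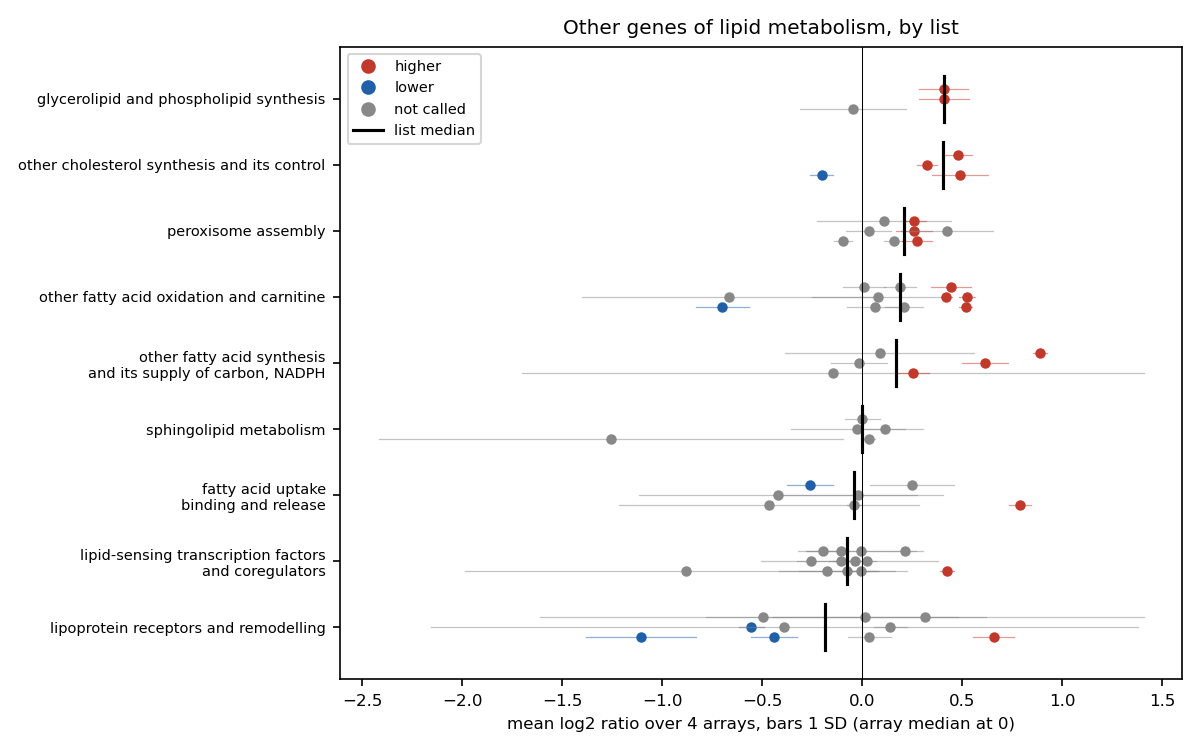
Mean log2 ratio over 4 arrays of the 67 measured genes in 9 further lists of lipid metabolism (points, bars 1 SD; black bar, list median), array median at 0. Red and blue mark genes called higher (18) and lower (6), when 18.5% and 6.1% of all named genes were. Of the 18 red genes, 8 keep a mean above 0 when the deposited values are not centred.

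Peroxisomes shorten very long and branched acyl chains. ABCD3, which carries branched and long acyl-CoAs across the peroxisomal membrane, had 0.21, 0.12, 0.19 and 0.24. Its mean of 0.19 ± 0.05 was the smallest called (adjusted p = 0.0472), and it lost the call in 9 of 15 other settings and became -0.25 as deposited. ABCD2, its relative for very long chains, had 0.31, 0.41, -0.30 and -0.02, with arrays on both sides of 0 (0.10 ± 0.33). ABCG1, a cholesterol exporter, had -0.33, -0.80, -0.28 and 0.11, below 0 on 3 of 4 arrays (-0.32 ± 0.37, adjusted p = 0.227). In the list of peroxisome assembly genes 3 of 8 rose and 0 fell: PEX10, PEX13 and PEX2 at 0.26 ± 0.06, 0.27 ± 0.07 and 0.26 ± 0.09 (adjusted p = 0.0247, 0.0277 and 0.0373). All 3 were negative as deposited, and lost the call with the zero set on the steadiest features.

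The list of further oxidation and carnitine genes held 11, of which 4 rose and 1 fell. OXCT1, which lets tissue use ketone bodies, had 0.51, 0.56, 0.49 and 0.50. The arrays nearly coincided, with a mean of 0.52 ± 0.03 (adjusted p = 0.00797). ACBD5, a peroxisomal acyl-CoA binding protein, was at 0.52 ± 0.04 (0.00799), and MCCC1, a leucine breakdown carboxylase subunit, at -0.70 ± 0.13 (0.0092). The other 2 higher, named after their values were seen, were the peroxisomal bifunctional enzyme HSD17B4 (0.42 ± 0.03) and the uncoupling protein UCP3 (0.44 ± 0.10). As deposited none of the 4 higher genes was called: OXCT1 and ACBD5 stood at 0.08 each (adjusted p = 0.603 and 0.568), HSD17B4 at -0.02 and UCP3 at 0. Of 13 lipid-sensing transcription factors and coregulators 1 rose, the coactivator NCOA2 (0.43 ± 0.04, adjusted p = 0.00936; -0.02 as deposited), and 0 fell. PPARA, the fatty acid sensor that drives oxidation genes in mammals, was at -0.18 ± 0.24 and was not called.

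The calls in these 9 lists were 18 higher and 6 lower of 67 genes, when 18.5% of all named genes were higher and 6.1% lower. They numbered 11 and 3 without array 1, when 11.6% of all named genes were called. Without array 4 they numbered 7 and 3, when 5.67% of all named genes were called. Without array 2 or array 3 they were 0 in limma, where 26 and 29 genes had an unadjusted p under 0.05. Then 0.114% and 0.143% of all named genes were called.

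Of 13 cytochrome P450 genes 1 fell and 0 rose, against 6.1% and 18.5% of all named genes. Their median SD was 0.64, and of all named genes with an SD from 0.4 to 0.8, 1.76% were called. CYP24A1, the 24-hydroxylase that inactivates vitamin D, had -0.99, -1.53, -1.15 and -0.36. It was below 0 on every array, with a mean of -1.01 ± 0.49, or 2.01-fold lower (adjusted p = 0.0369). CYP2R1, a vitamin D 25-hydroxylase, was above 0 on 3 of 4 arrays at 0.26 ± 0.26 and was not called (adjusted p = 0.181). Of the steroid-making enzymes, CYP11A1, which cuts the cholesterol side chain, had 0.44, -2.19, -0.88 and -0.24 (-0.72 ± 1.12, adjusted p = 0.336). The aromatase CYP19A1 had -0.86, 0.49, 0.47 and -2.60 (-0.63 ± 1.46, adjusted p = 0.506). In both genes the arrays were on both sides of 0 and far apart.

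The remaining 9 P450 genes had means between -0.57 and 0.15, and none was on the same side of 0 on all 4 arrays. They were the retinoic acid hydroxylase CYP26A1 (-0.57 ± 1.40), the bile acid enzymes CYP7A1 (-0.13 ± 1.44), CYP8B1 (-0.14 ± 0.39; CYP8B on the platform) and CYP7B1 (0.15 ± 1.03), the steroid 17-hydroxylase CYP17A1 (-0.14 ± 0.30), the xenobiotic enzymes CYP1A1 (-0.12 ± 0.99) and CYP3A5 (-0.01 ± 0.64; CYP3A37 on the platform), the fatty acid hydroxylase CYP4V2 (0.07 ± 0.14; CYP4V on the platform) and CYP20A1 (-0.01 ± 0.30). For CYP7A1 the 95% interval of the mean ran from -1.77 to 1.51. Of the 52 P450 values, 7 (13.5%) equalled the log2 of a ratio of whole numbers up to 12 (to 3 decimals). Over all lipid features, which include the P450s, 12 of 188 values (6.38%) did so. Over all 31722 features with a value on all 4 arrays the share was 10.2%, and over those with a gene symbol it was 7.26%. The P450 and lipid shares rest on few values, and no shares were tested against each other.

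**Figure D4:**
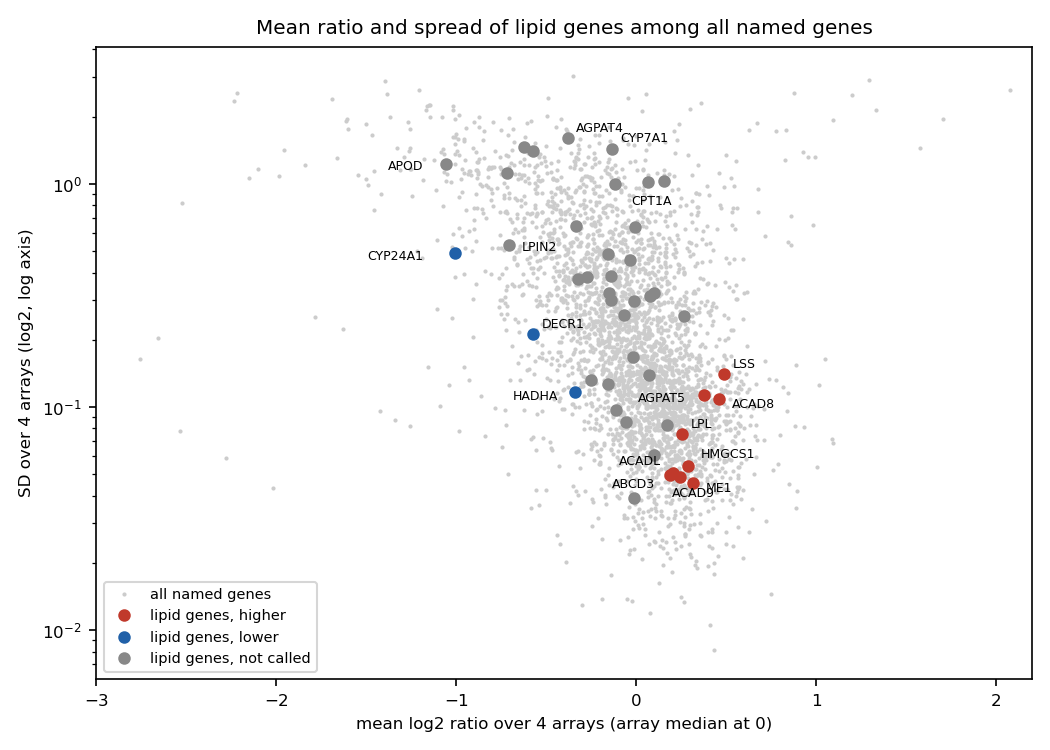
Mean log2 ratio (array median at 0) against SD over 4 arrays (log axis) for all 3494 named genes (grey dots) and the 45 lipid genes (large points, coloured by call). The called genes have an SD under 0.2, apart from DECR1 at 0.21 and CYP24A1 at 0.49. The SD enters the limma statistic, so at a given mean ratio a steadier gene is called more easily. Of all named genes with an SD under 0.1, 54.3% were called, and of those at 0.8 or above, 1.02%.

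Which lipid genes were called went with how much a gene varied between arrays. This is built into the test, since that spread enters the limma statistic. Of the 11 lipid genes with an SD under 0.1, 6 were called, and of the 9 with an SD of 0.8 or more, 0. Over the 45 genes, ratios correlated between pairs of arrays with Spearman's rho of 0.07 to 0.40, and over the 29 genes that are neither ABC transporters nor P450s with 0.35 to 0.74. Over all named genes rho was 0.38 to 0.49. These are correlations across genes of the same arrays, given as a description. Without the ABC transporters and P450s, 8 of 29 genes were higher and 2 lower, with a median of -0.03. Of all named genes 18.5% were higher and 6.1% lower. The median SD was 0.33 in the ABC transporters and 0.64 in the P450s, against 0.13 in the 29 genes kept. Leaving them out therefore keeps the steadier genes, which are called more often.

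The choice of zero decided which of the small positive ratios kept their sign. With the zero set on the steadiest features every gene was lower by 0.16, and as deposited by 0.44. Of the 9 lipid genes called higher, LSS (0.33, adjusted p = 0.044) and ACAD8 (0.30, adjusted p = 0.0393) were still called with the zero set on the steadiest features. As deposited only these 2 kept a mean above 0, and barely: LSS at 0.05 and ACAD8 at 0.02. Neither was called there (limma adjusted p = 0.727 and 0.907). The 3 lower genes, CYP24A1, DECR1 and HADHA, were called lower under all 3 centrings. Both other zeros lower every gene, so these 3 could not change sign, and the centrings are no check of their direction. With the zero set on the steadiest features, 2 lipid genes were higher and 6 lower, against 6.9% and 11.8% of all genes. As deposited 0 were higher and 15 lower, against 0.258% and 32.7% of all genes. Rank within the array does not move with the zero: LSS lay at percentiles 77.8 to 96.1, HMGCS1 at 70.0 to 80.0, ME1 at 76.0 to 82.8 and HADHA at 15.4 to 26.8 of all named genes.

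**Figure D5:**
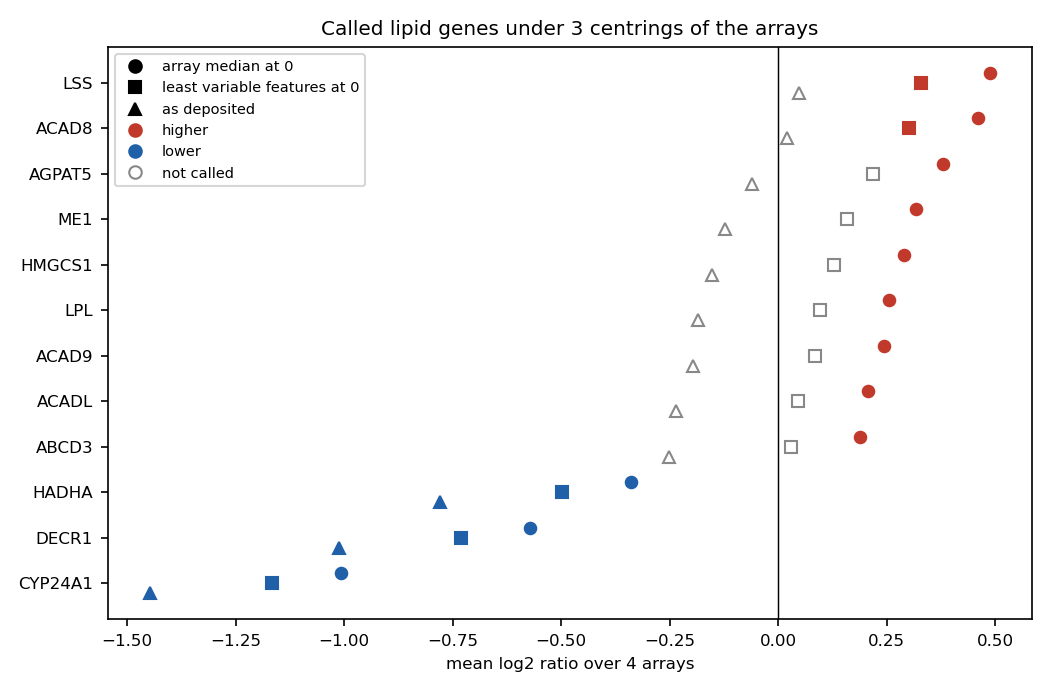
Mean log2 ratio over 4 arrays of the 12 called lipid genes under 3 choices of zero (circle, array median; square, the steadiest or least variable features; triangle, as deposited). Filled symbols passed at adjusted p under 0.05. CYP24A1, DECR1 and HADHA stay filled on the left under each, while 7 of the 9 genes on the right cross 0 as deposited. LSS and ACAD8 end just above 0 there (0.05 and 0.02) and are not called. Both other zeros move every gene to the left, so genes on the left could not cross 0.

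Markers of other cells and fibres that could share the tissue moved as follows, beside those already given. Of 4 erythroid markers 1 rose (HBA1) and of 16 fibroblast and matrix markers 2 rose and 3 fell, with array medians from -0.43 to 0.15 and from -0.18 to -0.06.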

How the data were processed

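Each of the 4 arrays has 45220 features with a deposited log2 ratio of its dyes, a scale read from the values. How the authors scanned, corrected and normalized them is not given in the sources read. The deposited array medians were -0.19, -0.49, -0.58 and -0.52, so arrays were not centred on the median. The direction is not stated. Signal over background could not be examined, and the number of arrays limits precision.

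Values at 16 or above were treated as missing, and 160 features within 0.005 of 0 on 3 or 4 arrays were left out. A platform table gave 4391 features 1 symbol, 0 several and 40829 none. Where RefSeq's gene table (assembly GRCg7b) listed an older symbol as synonym of a single gene, its current symbol was used (410 symbols), and no coordinates were used. Features were averaged per gene after median centring.

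Mean ratios were tested against 0, two-sided, by lmFit and eBayes of limma 3.58.1 (R 4.3.3), with Benjamini-Hochberg adjustment over 3494 genes. The fit was also run on simulated normal values, independent between genes. That run held no dye bias and no shift of the zero, so it does not bear on either. The p-values reflect the spread between arrays, which pooling of RNA would narrow, and with no dye swap they cannot show a dye bias common to all arrays.

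The genes, lists and tests were chosen with earlier results of these data known. Arrays' values are given for called lipid genes and up to 2 others per role with the largest mean by size, with CPT1A and FASN added after their values were seen, and from each other list up to 3 called genes with the smallest p are named. ACACA, PPARA and the markers were named outside this rule, with their values seen. A planned search of promoters was not made, as sequence was not used here. Alternatives were other centrings, scalings, filters, variance moderation, array weights, thresholds, a fit on features and leaving out each array.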

Additional observations from a re-analysis of the deposited data

Results flagged for a closer look

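In 6 of the 45 lipid genes 1 array lay further from the other 3 than Dixon's 95% limit for 4 values allows. Over all 3494 named genes 6.35% did so, and chance alone gives about 1 in 20. Array 1 was the distant one in 3 genes: ACADS (0.29, others 0.12 to 0.15), APOA1 (0.23, others -0.11 to -0.09) and CYP20A1 (-0.46, others 0.10 to 0.16). Array 4 was the distant one in AGPAT5 (0.21, others 0.42 to 0.46) and SREBF2 (-1.30, others -0.09 to 0.09), and array 2 in CYP17A1 (0.31, others -0.30 to -0.27). Of these, AGPAT5 was called higher, and without array 4 it stood at 0.44 (limma adjusted p = 0.0493).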

How the results depend on the processing

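The 12 calls were checked under 15 other settings, which makes 180 combinations. Of these, 105 kept direction and call and 68 lost the call. The other 7 changed the sign of the mean and were not called, all in the values as deposited. Those were ABCD3 (-0.25), ACAD9 (-0.20), ACADL (-0.23), AGPAT5 (-0.0615), HMGCS1 (-0.15), LPL (-0.19) and ME1 (-0.12). Each of the 12 genes has 1 feature and kept its platform symbol. The median over features and the platform symbols therefore left its ratios as they were, and those kept calls are no check. As deposited the lipid genes had 0 higher and 15 lower and a median of -0.50, and with the least variable features at 0 they had 2, 6 and -0.22; both settings lower every gene alike. An adjusted p of 0.10 gave 10 higher and 5 lower, when 33.9% of all named genes were called. The fit on features gave 0 higher and 0 lower. Leaving out 1 array gave 0 to 2 higher and 0 to 1 lower, and medians from -0.09 to 0.01. The other lists had 1 higher, 19 lower and a median of -0.41 as deposited, when 0.258% and 32.7% of all named genes were higher and lower. With the least variable features at 0 they had 11, 10 and -0.13, when 6.9% and 11.8% of all named genes were higher and lower. They had 0 to 11 higher and 0 to 3 lower without 1 array. Scaling, quantile normalization, robust moderation and array weights gave 8 to 9 higher and 3 lower. The median over features, at least 3 arrays and features at a ratio of 1 kept gave 7 to 9 higher and 3 lower. Platform symbols, chosen after seeing the data, gave 9 higher and 3 lower. Over these settings 17.6% to 28.2% of all named genes were called. No paired analysis was possible because each array is already 1 ratio of its 2 channels and the arrays form a single group.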
